A study of Danio rerio with 13 samples.

Results

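The cytosolic ribosomal protein genes encode the protein part of the ribosome, which reads messenger RNA and builds proteins in every cell. A gene was taken as a member if its symbol on the array platform was rpl or rps followed by a number, was rpsa, or began with rplp, and rps6k kinases were left out. This gave 74 genes with 79 probe sets, out of 8793 genes and 15502 probe sets analysed, and where a gene had several probe sets the one of highest mean signal stands for it. Of the 74 genes, 41 belong to the large subunit, 28 to the small subunit and 3 to the stalk (rplp0, rplp2 and rplp2b). The other 2 share the naming but are not structural ribosomal proteins: rpl7l1 is a factor of large subunit assembly and rps19bp1 encodes a protein that binds Rps19.

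RNA from zebrafish heart preparations, 3 days after fertilization, was hybridized to 13 single-colour Affymetrix arrays. The groups were atg5 morpholino (3 arrays), becn1 morpholino (3 arrays), atg7 morpholino (2 arrays), control morpholino (2 arrays, numbered 2 and 3) and uninjected embryos (3 arrays). A morpholino is an antisense oligonucleotide that blocks the splicing or translation of its target RNA, and those used here were injected into the fertilized egg. atg5, becn1 and atg7 each encode a core protein of autophagy, the pathway that delivers cytoplasm, ribosomes included, to the lysosome. The 5 groups shared age and tissue preparation, and the labels give neither a strain nor the number of embryos pooled per sample. The p-values therefore measure the spread between these preparations. A knockdown of this kind is transient and acts in the whole embryo, not in the heart alone.

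The targeted genes offered no check of the labels. No analysed probe set carried the symbol becn1 or atg7. The brighter of the 2 atg5 probe sets averaged 8.21 ± 0.06 on the log2 scale with the atg5 morpholino (SD, n = 3), against 8.04 ± 0.25 with control morpholino (n = 2) and 8.03 ± 0.12 in uninjected embryos (n = 3), and a morpholino need not lower the RNA of its target. Of 21 heart markers, 11 were on the array and 8 passed the filter on low signal. Their mean log2 level was 8.38 on atg5 1, 8.31 on becn1 1 and 8.84 on atg7 1 and 6.48 to 7.0 on the other 5 knockdown arrays, against 6.82 to 7.38 with control morpholino and 6.88 to 7.57 in uninjected embryos. Markers of liver and yolk split the knockdown arrays in the same way, with 9.34 on atg5 1, 8.92 on becn1 1 and 9.26 on atg7 1 and 7.18 to 7.75 on the other 5, against 8.51 to 9.70 with control morpholino and 8.32 to 9.89 in uninjected embryos. The arrays numbered 1 thus stood apart from the other knockdown arrays. Mean levels of the markers of blood, skeletal muscle, epidermis and neurons were 8.09 to 10.38 over the 13 arrays, where the median of all probe sets after normalization was 5.57. MAS5, the algorithm behind the deposited intensities, lists no probe set at 0.

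The cytosolic ribosome has a small subunit, which holds the messenger RNA and decodes it, and a large subunit, which joins amino acids into the chain. On the large subunit a stalk built of the acidic P proteins recruits the elongation factors. Most messenger RNAs of ribosomal proteins begin with a 5′ terminal oligopyrimidine tract, through which mTOR signalling controls their translation as a group. mTOR also restrains autophagy, and ribosomes themselves can be degraded by it. A few ribosomal proteins have paralogs that can take their place, among them Rpl22-like 1 for Rpl22 and several copies of Rps27, and in mouse cells Rpl22 is known to lower the RNA of its paralog.

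The ribosomal protein genes were among the brightest features of the arrays. On every array 70 of the 74 lay in the top 2% of probe sets, and 69 had a deposited intensity above 2048 on every array. Their deposited intensities ran from 37.1 to 11310, while the highest intensity of any probe set was 9847 to 13671 depending on the array. The 4 dimmer members were rps19bp1, with a mean log2 level of 6.13 after normalization, rps27l with 6.34, rpl7l1 with 8.67 and rps27.2 with 10.55. Probe sets differ in how well they bind, so these values do not rank the amounts of RNA of different genes.

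**Figure D1:**
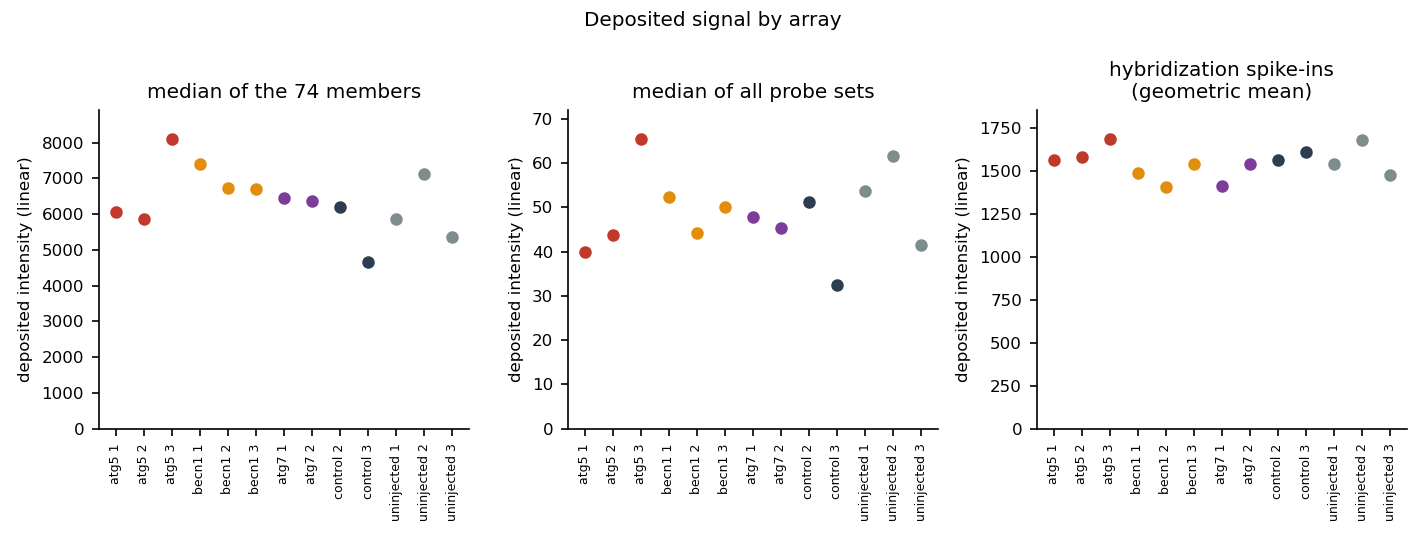
Deposited intensity (linear) on the 13 arrays, with the knockdown arrays left of control morpholino and uninjected. Each point is 1 array, and the panels show the median of the 74 ribosomal protein genes, the median of all probe sets and the geometric mean of the 9 hybridization spike-in probe sets. The ribosomal protein median ran from 4659 to 8096 and the median of all probe sets from 32.4 to 65.4, while the spike-ins ran from 1408 to 1683.

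As deposited, the median intensity of the 74 genes varied 1.74-fold between arrays, with 8096 on atg5 3 the highest and 4659 on control 3 the lowest. The median of all probe sets varied 2.01-fold and the 9 hybridization spike-in probe sets varied 1.20-fold. The arrays thus did not share 1 median, and whether they had been scaled to another common value cannot be told from the medians. The levels given from here on are log2 intensities after quantile normalization, which gives each array the same set of values. Because these genes fill much of the top of that set, a shift of all of them together is in part removed by this step. In bulk RNA, fewer cells of a type and less RNA per cell cannot be told apart.

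After normalization the median of the members' SDs over the 13 arrays was 0.08, against 0.33 for the 10307 probe sets kept, and 47 of the 74 had an SD under 0.1. Bright probe sets as a whole had smaller SDs. Among probe sets with a mean level above the 98th percentile, the median SD was 0.08 for the 70 members and 0.18 for 238 other probe sets, which were dimmer, with a median level of 11.21 against 12.62 for the members. Quantile normalization also holds the brightest values of each array to the same few values, and the part of this in the members' SDs was not tested. The 3 steadiest were rps4x, rpl35 and rps3a, each with an SD of 0.04. Rps4x and Rps3a are proteins of the small subunit and Rpl35 lies near the exit of the large subunit's peptide tunnel. In 62 of the 74 genes the mean of each knockdown group lay within 0.2 of the control morpholino mean. Only 6 genes reached an SD of 0.2: rps27l (0.46), rpl7l1 (0.37), rpl36 (0.33), rps19bp1 (0.31), rps27.2 (0.27) and rpl29 (0.23). Of these 6, 4 were the dimmer members named above. After this normalization, the median Pearson correlation across the 13 arrays was 0.05 over the 2701 pairs of members, and 53.5% of pairs were positive. Quantile normalization removes part of a shift shared by these bright genes, so these correlations cannot show whether they moved together before it.

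**Figure D2:**
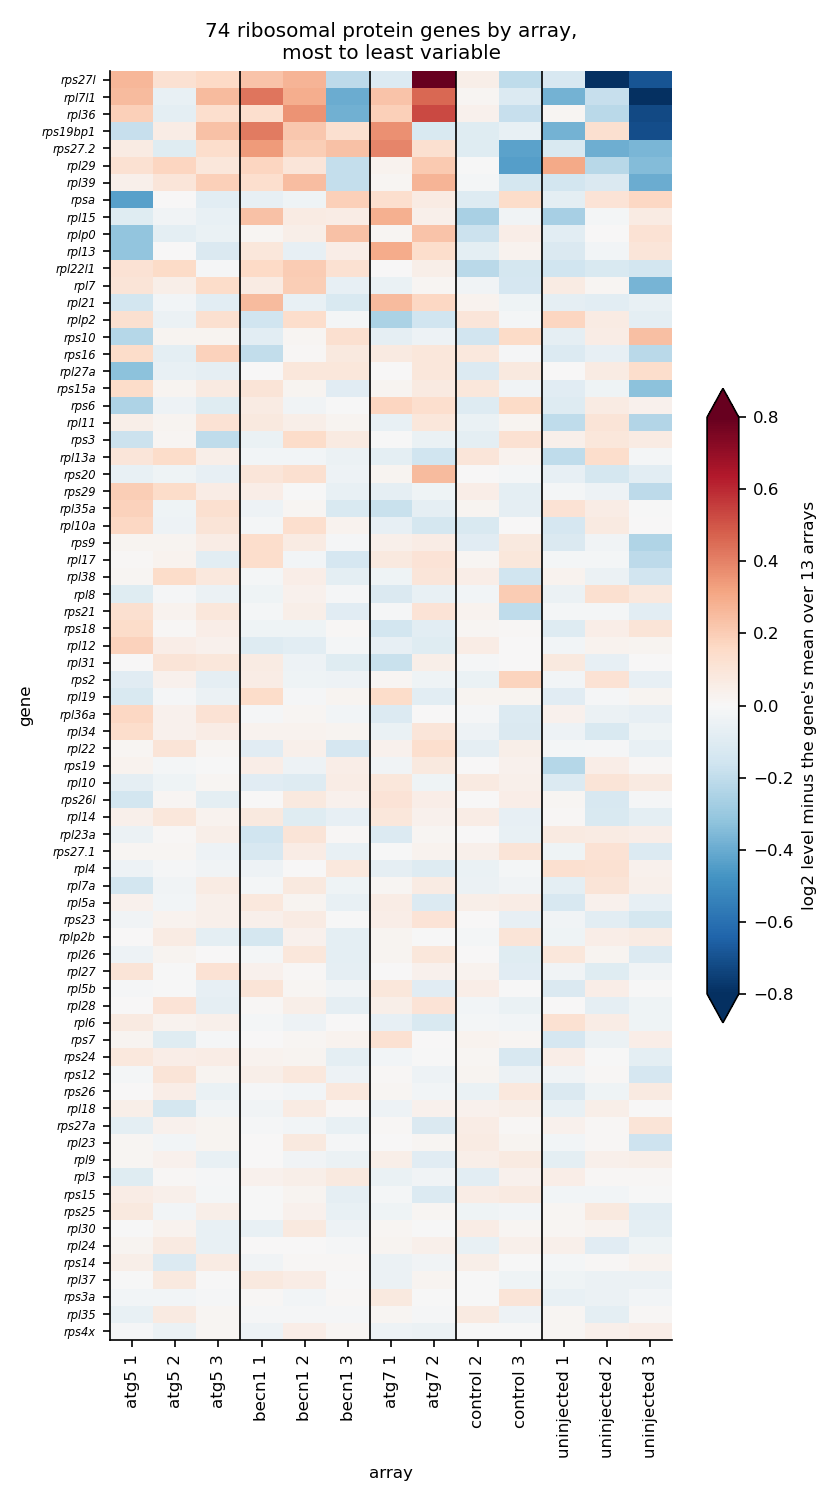
Log2 level of each of the 74 genes (rows, most to least variable) on each of the 13 arrays, minus the gene's mean over the 13 arrays (colour), with knockdown arrays left of control morpholino and uninjected. Most rows are pale, and rps27l, rpl7l1 and rpl36 at the top vary most, with SDs of 0.46, 0.37 and 0.33.

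Against control morpholino, 0 of the 74 genes passed an adjusted p of 0.05 in any knockdown. With the atg5 morpholino the median difference over the 74 genes was 0.03, against 0.01 over all probe sets kept, and 41 genes lay above 0 (55.4%, against 52.2% of all). In this comparison 0% of all probe sets were called in either direction by limma. At an unadjusted p under 0.05, 3 members were higher and 0 lower, against 1.47% and 0.931% of all probe sets. The arrays of the 2 groups did not overlap for 10 members that were higher and 7 that were lower, 13.5% and 9.46%, close to the 11.2% and 7.64% of all probe sets.

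With the becn1 morpholino the median difference was 0.01 over the members and 0.02 over all probe sets, and 46 members lay above 0 (62.2%, against 53.4% of all). Again 0% of all probe sets were called. At an unadjusted p under 0.05, 3 members were higher and 0 lower, against 2.78% and 2.49% of all. Groups did not overlap for 5 members that were higher and 5 that were lower, 6.76% each, against 10.5% and 8.2% of all.

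With the atg7 morpholino the median difference was 0.01 over the members and 0.02 over all probe sets, and 41 members lay above 0 (55.4%, against 51.9% of all). Among all probe sets 0.0485% were called higher and 0.0097% lower, none of them members. At an unadjusted p under 0.05, 4 members were higher and 1 lower, against 5.86% and 4.18% of all. Groups did not overlap for 14 members that were higher and 12 that were lower, 18.9% and 16.2%, against 23.8% and 18.8% of all.

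For the mean of the 3 knockdown groups against control morpholino the median difference was 0.01, against 0.02 over all probe sets, with 41 members above 0 (against 53.8% of all probe sets). No probe set was called (0%), and at an unadjusted p under 0.05 there were 3 members higher and 0 lower, against 2.99% and 2.44% of all. The 8 knockdown arrays lay clear above both control morpholino arrays for 1 member, rpl22l1, and below them for 0 members, against 2.3% and 1.95% of all. Against uninjected embryos the median was 0.04, against 0.02 over all probe sets, with 49 members above 0 (66.2%, against 52.4% of all). Here 1 member, rpl22l1, was called higher and 0 lower, where 0.708% of all probe sets were called higher and 0.514% lower. At an unadjusted p under 0.05, 12 members were higher and 1 lower, 16.2% and 1.35%, against 15% and 9.66% of all. Knockdown and uninjected arrays did not overlap for 3 members that were higher, rpl22l1, rps27.2 and rps9, and for 0 that were lower, against 3.79% and 2.09% of all. The share of members that were lower was thus below that of all probe sets in this comparison, and the share that were higher was near it. The comparisons against control morpholino share 2 arrays and are not independent of each other.

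**Figure D3:**
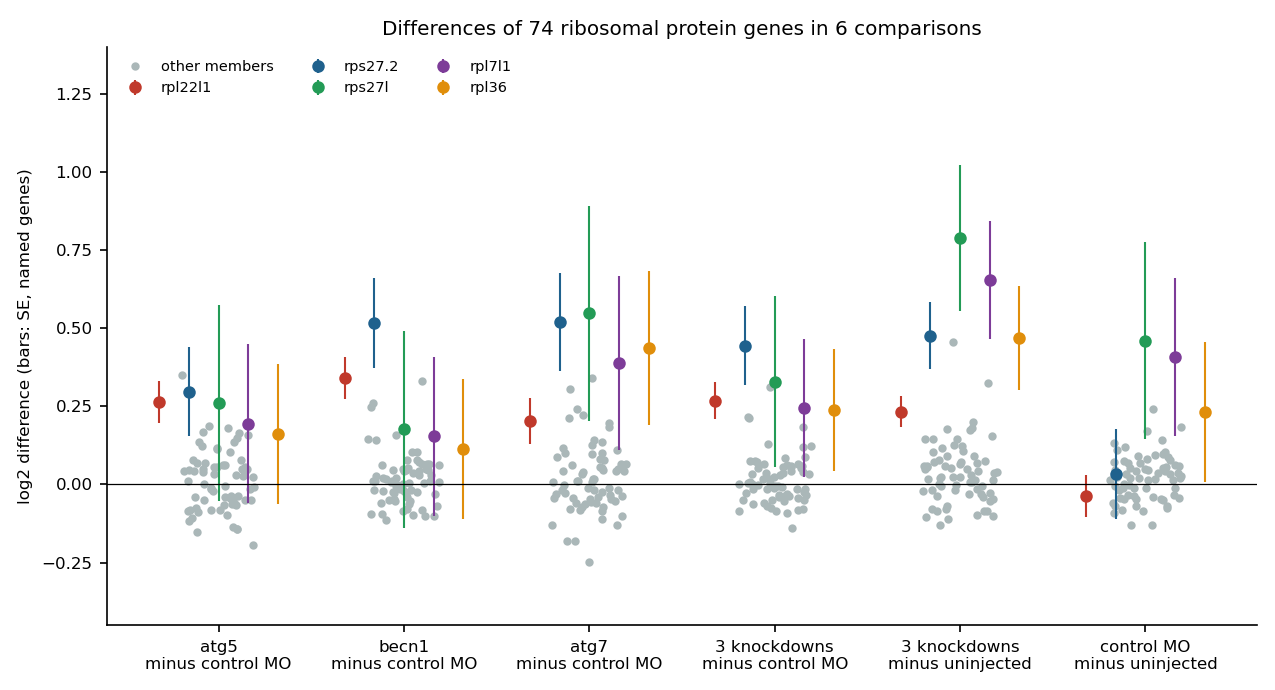
Difference in log2 level of each of the 74 genes (1 point per gene; bars on the 5 coloured genes are the SE) in 6 comparisons named on the horizontal axis. Most grey points lie within 0.2 of 0, and rpl22l1 lies between 0.20 and 0.34 in the comparisons against control morpholino, against -0.04 for control morpholino minus uninjected.

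rpl22l1, the paralog of the large subunit gene rpl22, was higher on all 8 knockdown arrays than on all 5 others. Its log2 level was 12.61, 12.65 and 12.48 with the atg5 morpholino, 12.66, 12.70 and 12.62 with becn1, and 12.50 and 12.54 with atg7, against 12.28 and 12.35 with control morpholino and 12.34, 12.37 and 12.35 in uninjected embryos. The knockdown groups thus lay above both references, with no overlap, and the references lay on top of each other. The share of all probe sets higher on all 8 knockdown arrays than on all 5 others is not given here. For each reference alone it was 2.3% against control morpholino and 3.79% against uninjected embryos. The mean was 12.58 ± 0.09 with atg5 (SD, n = 3), 12.66 ± 0.04 with becn1 (n = 3) and 12.52 ± 0.03 with atg7 (n = 2), against 12.32 ± 0.05 with control morpholino (n = 2) and 12.35 ± 0.02 in uninjected embryos (n = 3).

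Against uninjected embryos rpl22l1 rose by 0.23 (SE 0.05) on the log2 scale in the mean of the knockdowns, a 1.18-fold difference (limma, adjusted p = 0.0489). Against control morpholino the difference was 0.26 (SE 0.07, adjusted p = 1) with atg5, 0.34 (SE 0.07, adjusted p = 0.651) with becn1 and 0.20 (SE 0.07, adjusted p = 0.434) with atg7 by limma. Its unadjusted p was 0.00186 with atg5 and 0.000242 with becn1, the fourth and the third smallest of all probe sets in those comparisons. No probe set was called in either, so these ranks are not evidence of a difference. By size of difference it ranked 3 of the 74 members with atg5, 2 with becn1 and 10 with atg7. For the mean of the knockdowns against control morpholino the difference was 0.27 (SE 0.06, limma adjusted p = 0.679). Control morpholino minus uninjected was -0.04 (SE 0.07). This gene had been picked out from earlier results of these data, and these values are a description of it rather than independent support.

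The call against uninjected embryos lay close to the threshold. It was lost under 6 of 12 other settings, over which the difference was 0.23 to 0.46 and the limma adjusted p up to 0.406. It was also lost when any 1 array other than becn1 3 was left out. Leaving out 1 array gave a difference of 0.22 to 0.25 and an adjusted p of up to 0.213 by limma. Without atg7 2, whose ratio of 3′ to 5′ GAPDH signal of 5.98 was above the 2.30 to 3.28 of the other arrays, the difference was 0.23 and the adjusted p 0.0873. As deposited, and relative to the median of the other ribosomal protein genes on the same array, rpl22l1 lay 0.17 to 0.39 above its control morpholino mean on the knockdown arrays and between -0.03 and 0.11 on the other 5, again with no overlap. Without the arrays numbered 1 the difference from uninjected embryos was 0.23 (limma adjusted p = 0.156). Photoreceptor markers divided the arrays in the same way. The mean log2 level of the 8 of 9 such markers on the array was 2.26 to 6.87 over the knockdown arrays, 7.68 to 8.47 with control morpholino and 7.28 to 8.69 in uninjected embryos, and the part of this in the rpl22l1 result was not tested.

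**Figure D4:**
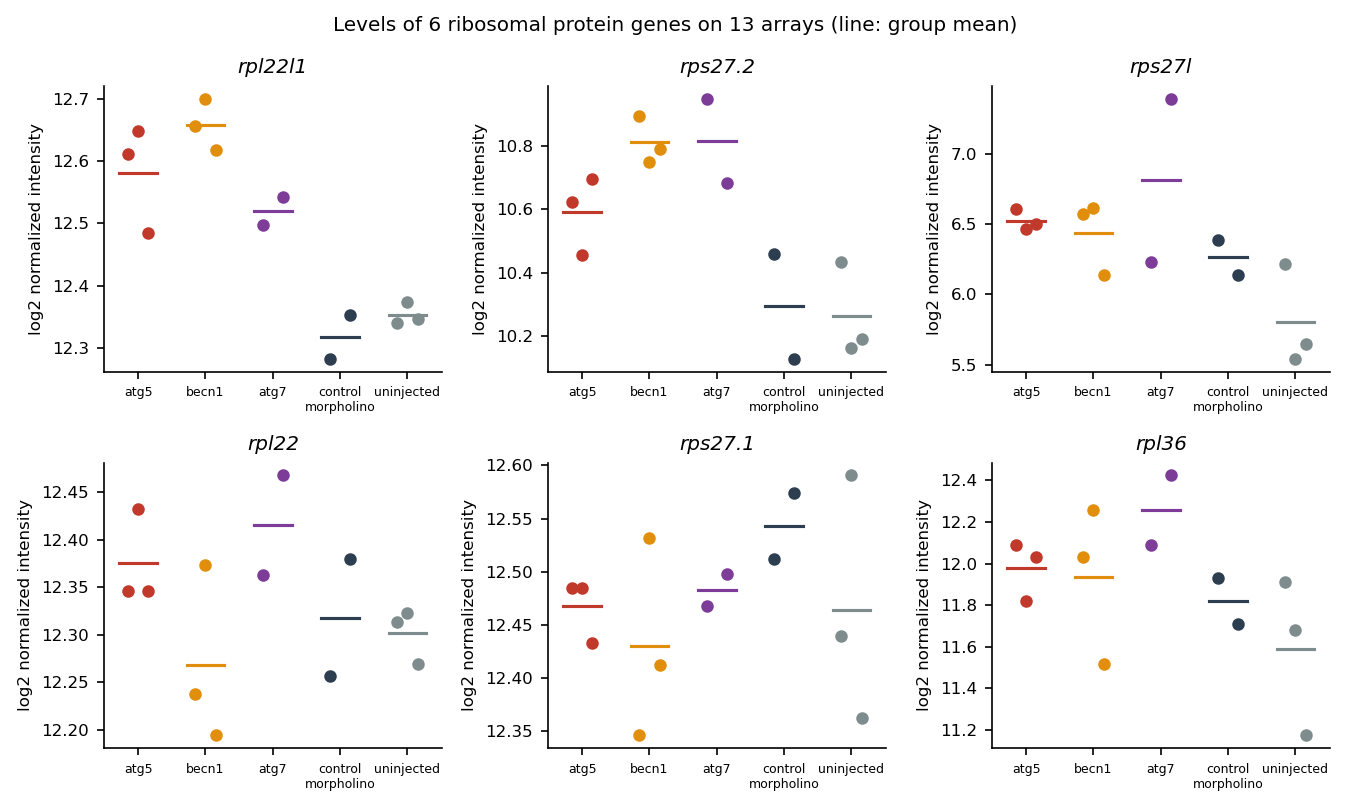
Log2 level after normalization of rpl22l1, rps27.2, rps27l, rpl22, rps27.1 and rpl36 on each array (points) with group means (lines), each panel with its own vertical range and the 3 knockdown groups left of control morpholino and uninjected. rpl22l1 lies at 12.48 to 12.70 on the knockdown arrays and at 12.28 to 12.37 on the others, while rpl22 overlaps between each knockdown and control morpholino.

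Its partner rpl22 did not show this separation from control morpholino. The level of rpl22 was 12.35, 12.43 and 12.35 with atg5, 12.24, 12.37 and 12.19 with becn1, and 12.36 and 12.47 with atg7, against 12.26 and 12.38 with control morpholino and 12.31, 12.32 and 12.27 in uninjected embryos. Each knockdown overlapped with control morpholino, while all atg5 and atg7 arrays lay above the 3 uninjected arrays. The log2 ratio of rpl22l1 to rpl22, relative to its control morpholino mean, was 0.07 on atg7 2, within the 0.03 to 0.08 of uninjected embryos. On the other knockdown arrays it was 0.14 to 0.42. The difference of rpl22 from control morpholino was 0.06 with atg5, -0.05 with becn1 and 0.10 with atg7. Across the 13 arrays the members most like rpl22l1 were rpl37 (Pearson r = 0.76), rps27.2 (0.68) and rpl34 (0.67), while the correlation with rpl22 was 0.17. These correlations describe arrays that share groups and 1 normalization.

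rps27.2 is a copy of rps27, which encodes a zinc finger protein of the small subunit. Its log2 level was 10.62, 10.46 and 10.70 with atg5, 10.89, 10.75 and 10.79 with becn1, and 10.95 and 10.68 with atg7, against 10.46 and 10.13 with control morpholino and 10.43, 10.16 and 10.19 in uninjected embryos. All becn1 and atg7 arrays lay above all 5 references, and atg5 2 lay level with control 2. The mean was 10.59 ± 0.12 with atg5 (SD, n = 3), 10.81 ± 0.07 with becn1 (n = 3) and 10.81 ± 0.19 with atg7 (n = 2), against 10.29 ± 0.23 with control morpholino (n = 2) and 10.26 ± 0.15 in uninjected embryos (n = 3).

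The difference of rps27.2 from control morpholino was 0.30 (SE 0.14) with atg5, 0.52 (SE 0.14, limma adjusted p = 0.804) with becn1 and 0.52 (SE 0.16, limma adjusted p = 0.408) with atg7. With only 2 control morpholino arrays these values moved with each: without control 3 the differences were 0.13, 0.35 and 0.35 for atg5, becn1 and atg7, and without control 2 they were 0.46, 0.68 and 0.68. The mean of the knockdowns against uninjected embryos gave 0.48 (SE 0.11, limma adjusted p = 0.0522), just short of the threshold, and control morpholino minus uninjected gave 0.03 (SE 0.14). It passed the threshold with median centring, with the replicate number as a block and without becn1 3. As deposited, and relative to the other ribosomal protein genes, its knockdown arrays ran from 0.18 to 0.71 and overlapped with -0.30 and 0.30 on the control morpholino arrays and -0.15 to 0.34 in uninjected embryos.

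The other copies, rps27.1 and rps27l, differed from each other. rps27.1 was at 12.48, 12.48 and 12.43 with atg5, 12.35, 12.53 and 12.41 with becn1, and 12.47 and 12.50 with atg7, against 12.51 and 12.57 with control morpholino and 12.44, 12.59 and 12.36 in uninjected embryos. Its difference from control morpholino was -0.08 with atg5, -0.11 with becn1 and -0.06 with atg7. Of the other 2 rps27.1 probe sets, the differences were 0.08 and 0.10 with atg5, 0.03 and 0.06 with becn1, and -0.02 and -0.08 with atg7. The sign thus depended on the probe set with atg5 and becn1, and was negative for all 3 probe sets with atg7. rps27l, a further relative known in human cells as a p53 target, was at 6.60, 6.46 and 6.50 with atg5, 6.57, 6.61 and 6.13 with becn1, and 6.23 and 7.39 with atg7, against 6.38 and 6.14 with control morpholino and 6.21, 5.54 and 5.65 in uninjected embryos. rps27l differed from control morpholino by 0.26 with atg5, 0.18 with becn1 and 0.55 with atg7, the same direction as rps27.2. The atg7 value ran from -0.03 to 1.13 over 26 settings. The spread of rps27l within groups was wide, with 7.39 on atg7 2 the highest of all. The mean of the knockdowns lay 0.79 (SE 0.23, limma adjusted p = 0.0829) above uninjected embryos, and 0.59 (limma adjusted p = 0.124) without atg7 2. rps27a is not a copy of rps27 despite its name, and encodes ubiquitin fused to another small subunit protein. It differed from control morpholino by -0.04 with atg5, -0.06 with becn1 and -0.08 with atg7. Cross-hybridization between rps27.1, rps27.2 and rps27l was not tested.

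The stalk genes gave small differences in both directions. rplp0, the base of the stalk, was at 12.15, 12.39 and 12.41 with atg5, 12.48, 12.51 and 12.70 with becn1, and 12.48 and 12.69 with atg7, against 12.29 and 12.52 with control morpholino and 12.38, 12.47 and 12.58 in uninjected embryos. Each knockdown overlapped with both references, while the 3 atg5 arrays lay below all becn1 and atg7 arrays. rplp2 was at 12.01 and 12.10 with atg7, below the 12.36 and 12.25 of control morpholino, a difference of -0.25 (SE 0.11, limma adjusted p = 0.493), and at 12.21 to 12.39 with atg5 and 12.10 to 12.41 with becn1. rplp2b differed from control morpholino by -0.04 with atg5, -0.10 with becn1 and -0.03 with atg7. No analysed probe set carried the symbol rplp1.

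In the small subunit the median difference from control morpholino was -0.01 with atg5, 0.01 with becn1 and 0.01 with atg7 over the 28 genes. rpsa, the laminin receptor precursor that sits at the back of the small subunit, was the lowest member with atg5. It was at 12.33, 12.77 and 12.68 with atg5, 12.70, 12.73 and 12.96 with becn1, and 12.90 and 12.83 with atg7, against 12.66 and 12.91 with control morpholino and 12.69, 12.87 and 12.93 in uninjected embryos. The atg5 difference of -0.19 (SE 0.13) rested on atg5 1, the lowest array of all. rps6, the small subunit protein phosphorylated by S6 kinase downstream of mTOR, differed from control morpholino by -0.15 with atg5, -0.01 with becn1 and 0.13 with atg7. rps3, which lies at the entry of the messenger RNA channel, differed by -0.14 with atg5, 0.04 with becn1 and -0.05 with atg7.

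Among small subunit genes mutated in human Diamond-Blackfan anaemia, rps19 differed from control morpholino by -0.01 with atg5, 0.01 with becn1 and 0.01 with atg7. rps24 gave 0.12 with atg5, 0.05 with becn1 and 0.04 with atg7. rps7 gave -0.05 with atg5, -0.01 with becn1 and 0.04 with atg7. rps14, whose loss in humans marks the 5q deletion syndrome, gave -0.02, -0.03 and -0.06 in the same order. rps2, not counted here among the Diamond-Blackfan genes, gave -0.11, -0.07 and -0.07. None of the 5 genes had an unadjusted p under 0.05 in these comparisons.

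In the large subunit the median difference was 0.04 with atg5, 0.03 with becn1 and 0.01 with atg7 over the 41 genes. rpl29, a small and basic surface protein, gave the largest atg5 difference of all members. It was at 12.69, 12.73 and 12.66 with atg5, 12.73, 12.66 and 12.37 with becn1, and 12.59 and 12.77 with atg7, against 12.56 and 12.12 with control morpholino and 12.86, 12.34 and 12.21 in uninjected embryos. The atg5 difference was 0.35 (SE 0.18), with the control morpholino arrays far apart and uninjected 1 the highest array of all. Without control 3 it was 0.13, and rpl22l1, at 0.30, was then the highest member. rpl15 lay 0.26 (SE 0.11, limma adjusted p = 0.909) above control morpholino with becn1 and 0.31 (SE 0.12, limma adjusted p = 0.444) with atg7, and 0.08 with atg5.

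rpl8 gave negative differences in each knockdown, -0.14 with atg5, -0.09 with becn1 and -0.18 with atg7, and the lowest difference of all members for their mean, -0.14 (SE 0.07, limma adjusted p = 0.872). rpl13a, which in human cells also leaves the ribosome to silence inflammatory messages, differed by 0.03 with atg5, -0.09 with becn1 and -0.18 with atg7. rpl5a, rpl5b and rpl11 encode proteins that carry 5S RNA into the large subunit and, in mammals, bind the p53 regulator MDM2. Their differences from control morpholino ranged from -0.08 to 0.08 over the 3 genes and 3 knockdowns. rpl3, at the peptidyl transferase centre, gave -0.01 with atg5, 0.08 with becn1 and -0.02 with atg7, and its dimmer second probe set gave -0.17, 0.11 and -0.09. rpl10a gave 0.13, 0.10 and -0.05 for atg5, becn1 and atg7, and rpl38, needed in mice for translation of Hox messages, gave 0.14, 0.04 and 0.09. rpl23a, where signal recognition particle docks, gave 0.03, 0.01 and -0.02, and rpl35a, another Diamond-Blackfan gene in humans, gave 0.12, -0.03 and -0.10.

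The large subunit genes rpl36 and rpl39 and the assembly gene rpl7l1 varied together across arrays, and were not alone in this. rpl36 was at 12.09, 11.82 and 12.03 with atg5, 12.03, 12.26 and 11.51 with becn1, and 12.09 and 12.42 with atg7, against 11.93 and 11.71 with control morpholino and 11.91, 11.68 and 11.17 in uninjected embryos. becn1 3 and uninjected 3 were its lowest arrays and atg7 2 its highest. rpl7l1 followed, at 8.93, 8.61 and 8.93 with atg5, 9.10, 8.96 and 8.28 with becn1, and 8.90 and 9.13 with atg7, against 8.69 and 8.56 with control morpholino and 8.30, 8.49 and 7.87 in uninjected embryos. The correlation across the 13 arrays was 0.91 between rpl36 and rpl7l1, 0.91 between rpl36 and rpl39, and 0.92 between rpl39 and rpl7l1. The range over all pairs of members was -0.90 to 0.92. With the mean of the other members the correlation was 0.83 for rpl36, 0.95 for rpl39 and 0.92 for rpl7l1. The small subunit gene rps9 reached 0.66 with rpl36, 0.75 with rpl39 and 0.83 with rpl7l1, so the pattern was not particular to these 3 genes. Against uninjected embryos the mean of the knockdowns lay higher by 0.47 (SE 0.17, limma adjusted p = 0.117) for rpl36, 0.33 (SE 0.10, limma adjusted p = 0.0866) for rpl39 and 0.65 (SE 0.19, limma adjusted p = 0.0788) for rpl7l1, and in each case the groups overlapped. atg7 2, the array with the high ratio of 3′ to 5′ GAPDH signal of 5.98, was the highest array for rpl36, rpl39 and rpl7l1, as for rps27l. Without it the differences were 0.41 for rpl36, 0.28 for rpl39 and 0.62 for rpl7l1, with limma adjusted p-values of 0.197, 0.149 and 0.131. Without becn1 3, the lowest knockdown array for these genes, the 3 differences passed the threshold. They were 0.54, 0.37 and 0.74, with limma adjusted p-values of 0.0432, 0.0271 and 0.0208. Leaving out the lowest knockdown array raises the knockdown mean by construction, so these values are a description. The number of all probe sets called also rose in that setting, as given below.

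Control morpholino and uninjected embryos differed little on the quantile normalized scale. The members' median difference depended on the scale, at -0.15 with no normalization and 0.19 with median centring, as given below. After quantile normalization it was 0.02 over the members and 0.00 over all probe sets, and 46 members lay above 0 (62.2%, against 50.8% of all). No probe set was called (0%), and at an unadjusted p under 0.05 there were 0 members higher and 1 lower, against 1.57% and 1.01% of all. Groups did not overlap for 10 members that were higher and 3 that were lower, 13.5% and 4.05%, against 10.9% and 7.28% of all. The largest differences were in the dim members, 0.46 (SE 0.31) for rps27l, 0.41 (SE 0.25) for rpl7l1 and 0.24 (SE 0.26) for rps19bp1. The lowest was in rpl4, a large subunit protein of the peptide tunnel, at -0.13 (SE 0.06, limma adjusted p = 1), and the mean of the knockdowns likewise lay 0.13 below uninjected embryos for rpl4.

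Set against each other, the knockdowns differed in 0 members at an adjusted p under 0.05. Of all probe sets, becn1 against atg5 called 0%, atg7 against atg5 called 0.0194% higher and 0% lower, and atg7 against becn1 called 0.0097% in each direction. At an unadjusted p under 0.05, 7 members were higher and 8 lower in atg7 than in atg5, 9.46% and 10.8%, against 6.56% and 5.2% of all. The highest were rpl13 at 0.36 (SE 0.10, limma adjusted p = 0.27), rpl21 at 0.30 (SE 0.09, limma adjusted p = 0.305) and rps27l at 0.29 (SE 0.31). The lowest were rplp2 at -0.28, rpl13a at -0.22 and rpl35a at -0.22. Blocked by replicate number in the 8 knockdown arrays, 7 members were higher and 4 lower at an unadjusted p under 0.05. The shares of all probe sets were 7.04% and 6.32%, and 0 members were called. In becn1 against atg5, 3 members were higher and 1 lower, against 3.76% and 2.35% of all, led by rplp0 at 0.25 and rpl12 at -0.16. With the replicate number as a block, fitted to the 8 knockdown arrays, 5 were higher and 1 lower, against 4.99% and 4.65% of all, and 0 were called. In atg7 against becn1, 0 members were higher and 0 lower, against 2.5% and 1.85% of all, and rpl22l1 gave -0.14 (SE 0.07, limma adjusted p = 0.963). Blocked in the same way, 0 members were higher and 1 lower, against 2.22% and 1.66% of all, and 0 were called.

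**Figure D5:**
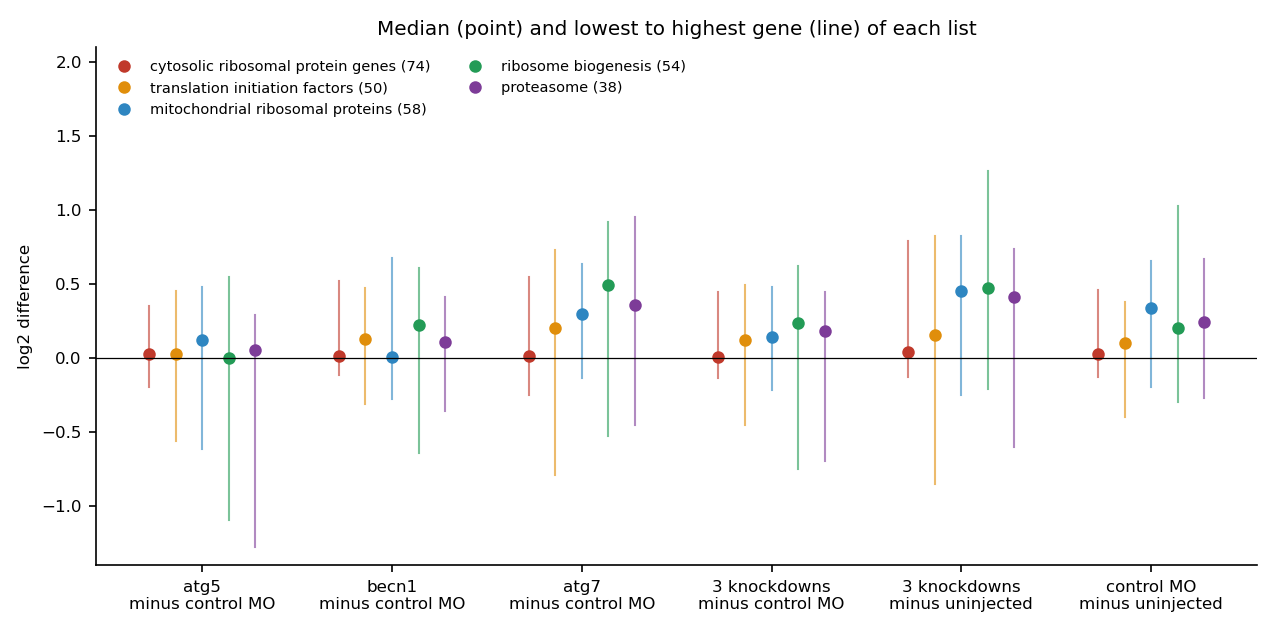
Median (points) and lowest to highest gene (lines) of the log2 difference of the 74 ribosomal protein genes and of 4 lists of related genes, in 6 comparisons named on the horizontal axis. The median of the ribosomal protein genes stays between 0.01 and 0.04 after quantile normalization. Ribosome biogenesis reaches a median of 0.49 with atg7. Mitochondrial ribosomal proteins reach a median of 0.45 for the mean of the knockdowns against uninjected embryos. With median centring the ribosomal protein median in that comparison was 0.25.

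The genes that build and serve the ribosome were spread more widely. Ribosome biogenesis factors, which assemble the subunits in the nucleolus, had a median difference from control morpholino of -0.00 with atg5, 0.22 with becn1 and 0.49 with atg7 over 54 genes kept. None was called there, and 15 reached an unadjusted p under 0.05 with atg7, all higher, against 5.86% of all probe sets higher. Against uninjected embryos the median was 0.47. At an unadjusted p under 0.05, 28 of the 54 were higher and 0 lower, against 15% and 9.66% of all probe sets. Where 0.708% of all probe sets were called higher, 2 of the 54 were called. These were wdr3, at 0.74 (SE 0.16, limma adjusted p = 0.0496), and imp4, at 1.26 (SE 0.25, limma adjusted p = 0.0488), both parts of the complex that processes small subunit RNA. imp4 also lay 1.02 (SE 0.34, limma adjusted p = 1) higher with control morpholino than in uninjected embryos. On the same arrays the mean log2 level of 11 cell cycle markers was 8.11 to 8.30 with atg5, 8.34 to 9.06 with becn1 and 8.72 to 8.98 with atg7, against 8.07 to 8.64 with control morpholino and 7.92 to 8.26 in uninjected embryos, and their part in these values was not tested.

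The 58 mitochondrial ribosomal protein genes, which serve the separate ribosome of the mitochondrion, had a median of 0.12 with atg5, 0.01 with becn1 and 0.30 with atg7 against control morpholino. For the mean of the knockdowns against uninjected embryos the median was 0.45. At an unadjusted p under 0.05, 44 of 58 were higher and none lower, against 15% and 9.66% of all probe sets, and 0 were called. Control morpholino itself lay 0.34 above uninjected embryos in this list. The 50 genes listed as translation initiation factors were taken by symbol, eif followed by a number, which also takes in the kinase eif2ak3. They had medians of 0.03 with atg5, 0.13 with becn1 and 0.20 with atg7. Of these, 2 rose and 1 fell against uninjected embryos, where 0.708% of all probe sets were called higher and 0.514% lower. eif2b1 rose by 0.82 (SE 0.18, limma adjusted p = 0.0489) and eif2b2 rose by 0.62 (SE 0.14, limma adjusted p = 0.04998), both subunits of the exchange factor that recharges eIF2, and eif2ak3, a kinase that inhibits eIF2 under endoplasmic reticulum stress, fell by 0.85 (SE 0.18, limma adjusted p = 0.0489).

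The 13 elongation and termination factor genes stayed near the ribosomal protein genes, with medians of 0.02 with atg5, 0.06 with becn1 and 0.02 with atg7 and 0 called. The 10 kept genes of poly(A) binding proteins and other messages known to carry the same 5′ tract or to act on it had medians of -0.05 with atg5, 0.04 with becn1 and 0.03 with atg7, and 0 were called. The 38 proteasome subunit genes had medians of 0.05 with atg5, 0.11 with becn1 and 0.36 with atg7, and 1 of them, psmd8, rose against uninjected embryos by 0.67 (SE 0.12, limma adjusted p = 0.0467). All calls against uninjected embryos in these lists lay just under the threshold. No probe set was called in this comparison without uninjected 1 or without uninjected 3. Against control morpholino no probe set was called for the mean of the knockdowns, and the part of injection in these calls was not tested. The counts in these lists are to be read against the shares of all probe sets given above for each comparison.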

How the data were processed

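The authors deposited 1 linear signal intensity per probe set and array, made with MAS5 per the submitters' processing notes. The version and the scaling target are not given in the sources used here. Per the labels' protocols, labelled cRNA was made from 5 ug RNA. Of 15617 probe sets, 115 controls were left out. Log2 intensities were quantile normalized, with no pseudocount, and the filter on low signal asked for a level above the array's 40th percentile on 2 or more arrays and left 10307 probe sets (66.5%), with all 74 members. All 74 members' symbols were also current ones. Genes were taken from probe sets with 1 symbol.

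A group means model over the 13 arrays was fitted in limma 3.58.1, under R 4.3.3, with an intensity trend. It had 8 residual degrees of freedom and 4.61 from the prior. All tests were two-sided, with Benjamini-Hochberg adjustment over the probe sets kept, separately in each comparison. The knockdown groups had equal weight in their mean. The procedure was run on simulated data for the comparison of the knockdowns with uninjected embryos. Noise there was independent between arrays, so arrays that deviate together were not covered. The title of becn1 3 gives becn, taken as becn1.

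Named were the paralogs with their partners, the stalk, a set of genes of known role, the 3 highest and 3 lowest differences per comparison, members called, the 3 highest and lowest SDs, and a few others (rpl15, rpl36, rpl39, rps9) chosen after their values were seen. Members and lists were chosen with earlier results of these data known. Alternatives covered normalization, filter, pseudocount, trend, groups fitted, replicate numbers, reference and single arrays. The number of arrays limits the precision. Same-numbered arrays of the knockdown groups deviated together (7 of 7 correlations over 0.1), so the comparisons between knockdowns are also given with the number as a block. No sequence is shown.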

Additional observations from a re-analysis of the deposited data

How the results depend on the processing

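With no normalization the median difference of the members against control morpholino was 0.27 with atg5, 0.36 with becn1, 0.26 with atg7 and 0.29 for their mean, 0.15 for their mean against uninjected and -0.15 for control morpholino minus uninjected. All probe sets shifted with them, by 0.29, 0.33, 0.27, 0.30, -0.03 and -0.32 in that order, so that relative to all probe sets the members lay at -0.02, 0.03, -0.01, -0.01, 0.17 and 0.17. With median centring it was 0.10 (becn1), 0.070 (atg7), 0.061 (mean), 0.25 (mean against uninjected) and 0.19 (control morpholino minus uninjected). With cyclic loess it was -0.030 (atg5), -0.014 (becn1), -0.012 (atg7), -0.022 (mean), 0.011 (mean against uninjected) and 0.037 (control morpholino minus uninjected). The sign against control morpholino, and of control morpholino minus uninjected, thus depended on the scaling, while the mean against uninjected stayed above 0 in every setting run. Among these alternatives it is set against all probe sets only with no normalization. There control morpholino minus uninjected gave the same 0.17, so the stable sign is not particular to the knockdowns. Without the arrays numbered 1 it was 0.041 (atg7) and 0.021 (mean), and with both references as 1 group 0.026 (becn1), 0.033 (atg7) and 0.032 (mean). Leaving out 1 array gave 0.00048 to 0.030 with atg5, 0.0061 to 0.042 with atg7, 0.00063 to 0.022 for the mean, 0.023 to 0.046 for the mean against uninjected and 0.016 to 0.041 for control morpholino minus uninjected.

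The count of members called against uninjected, 1 as reported, was 0 with no normalization, cyclic loess, no filter, no intensity trend, only the compared groups, or without the arrays numbered 1, and 9 with median centring. Leaving out 1 array gave 0 to 5 (5 without becn1 3, 0 without any other). Over all probe sets, 126 were called as reported, 14 to 488 under the other settings, and 0 (without uninjected 1 or uninjected 3) to 876 (without becn1 3) with 1 array left out. With both references as 1 group, 1 member was called with becn1 (rpl22l1, limma adjusted p = 0.0448) and 2 for the mean of the knockdowns (rpl22l1, 0.02, and rps27.2, 0.0294). The share of all probe sets called with both references as 1 group is not given here, so these counts cannot be set against it. The cause was not tested. rpl22l1 and rps27.2 kept a positive difference from control morpholino in all 26 settings, 0.23 to 0.58 and 0.28 to 0.76 for the mean.

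Same-numbered arrays did not deviate together throughout (12 of 22 correlations over 0.1, from -0.41 to 0.62), so the numbers were not taken as a pairing with control morpholino or uninjected. Between knockdown groups all 7 were over 0.1 (0.12 to 0.62). With the replicate number as a block, 2 members were called against uninjected, and 0 between knockdowns, also in a fit of the 8 knockdown arrays chosen after seeing the data.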
